A study of Homo sapiens with 4 samples.

Results

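The genes described here encode the mitochondrial ribosome, the protein import translocases of both mitochondrial membranes, and subunits and assembly factors of the respiratory chain. They were taken by symbol: every gene with a single-gene probe set whose symbol begins with NDUF, UQCR, ATP5, TIMM or TOMM, or with MRPL, MRPS or COX and a digit, together with SDHA, SDHB, SDHC and SDHD. The rule used no measured values and gave 139 of the 14884 genes with a named probe set. SH-SY5Y is an established human neuroblastoma line of sympathetic type, and the groups were cells given origamicin, an inhibitor of protein disulfide isomerase, at 30 µM for 24 h (2 arrays) and mock cells given the solvent methanol for 24 h (2 arrays). RNA was hybridised to Affymetrix Human Gene 2.0 ST arrays, with 1 log2 value per probe set and array. The sample titles number biological replicates but name no separate cultures, so p-values cover only the spread among these 4 arrays, which may be technical.

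The mitochondrial ribosome translates the few proteins encoded by mitochondrial DNA, all of them respiratory chain and ATP synthase subunits. Its own proteins, like every import factor and most respiratory subunits, are nuclear-encoded, made in the cytosol and imported, most of them through the TOM complex of the outer membrane and the TIM complexes of the inner membrane. Proteins that fold by forming disulfides in the intermembrane space, the small TIMM chaperones among them, use a mitochondrial relay separate from the protein disulfide isomerase of the endoplasmic reticulum.

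The label of the set is broader than the genes behind it. Large ribosomal subunit proteins (MRPL, 48 genes) and small subunit proteins (MRPS, 25 genes) made up 73 members, TIMM genes 13 and TOMM genes 10. Complex IV was covered by 17 subunit-type genes and 6 assembly factors, complex III by 5 genes and ATP synthase by 3. Complex I was represented by 3 assembly factors, and 0 subunits of complex I and 0 of complex II had a named probe set, so those complexes were not analysed here. The remaining members were 4 pseudogenes and 5 noncoding RNA genes beside a member gene (COX10-DT, NDUFA6-DT, NDUFB2-AS1, MRPL20-AS1 and MRPL23-AS1). A filter on the mean of all 4 arrays, set at 3.82 on the log2 scale, left 137 members among 11883 tested genes. The 2 below it were COX7B2, a testis-type complex IV isoform (2.50 and 2.54 in mock, 2.80 and 2.54 after origamicin), and the pseudogene MRPL42P5 (3.73, 3.67, 3.51 and 4.37 in the same order).

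The 4 arrays were alike: over the tested genes, arrays of a group correlated at 0.995 and 0.994 and arrays of different groups at 0.991 to 0.992. Of the 12 noradrenergic markers 10 were named, and all 10 lay above the filter, including GATA3 and HAND2. The filter also kept 7 of the 8 named mesenchymal markers and all 5 named glial markers. Passing it therefore did not tell these cell types apart. The summed log2 level of the noradrenergic markers was 98.6 to 99.1 in mock and 95.8 to 96.0 after origamicin, with 9 of 10 lower. CHGA (-0.80) and CHGB (-0.76) weighed heavily in that sum, while the median difference of these markers was -0.18. The summed level of 8 of 9 mesenchymal markers was 49.8 to 49.9 in mock and 52.2 to 52.8 after origamicin, with 6 of the 7 tested higher, and that of 5 of 7 glial markers 23.4 to 23.8 and 23.7 to 24.1. No marker probe set was listed at 0, and CD44 lay below the filter. The part of these shifts in the results on mitochondrial genes was not tested.

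After origamicin most of these genes stood slightly lower, and no measured log2 difference passed 0.5 in size. Of the 137 tested members, 102 (74.5%) were lower in origamicin than in mock, against 52.1% of all genes tested. The median log2 difference (origamicin minus mock) was -0.080 for the members, with quartiles of -0.14 and 0.0016, and -0.0072 for all genes, with quartiles of -0.11 and 0.10. In bulk RNA, fewer cells of a type and less RNA per cell cannot be told apart. No member passed an adjusted p of 0.05 in limma (moderated linear model, Benjamini-Hochberg over all genes tested; smallest adjusted p = 0.171), and 0% of all genes did.

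The array values showed the same order in both replicates. Relative to each gene's mean over the 4 arrays, the median member stood at 0.041 and 0.034 on the mock arrays and at -0.038 and -0.039 on the origamicin arrays. Both mock arrays thus lay above both origamicin arrays. The corresponding medians over all genes ran from -0.0042 to 0.0089. In number, 42 and 47 of the 137 members lay below their own mean on the mock arrays, and 95 and 88 on the origamicin arrays. Deviations of a gene sum to 0 over the 4 arrays, so these counts partly restate the share of members lower. The same counts over all genes were not made.

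Counts by gene gave the following picture. Both origamicin values lay below both mock values for 62 members (45.3%; 25.8% of all genes) and above them for 13 (9.49%; 22.7% of all genes). At an unadjusted p under 0.05 in limma, 14 members were lower and 1 higher, against 8.42% and 7.99% of all genes. The 14 are 10.2% of the members, near the background on that side, while the share on the higher side was 0.73%. With any 1 array left out, the share on the lower side fell for the members and for all genes, and the members stood below all genes. With an intensity trend in limma's variance model, 4 members passed an adjusted p of 0.05, all lower, against 2.16% of all genes on that side, and 0 were higher, against 2.14%. These 4 (MRPL2, MRPL50, MRPS10 and TOMM34) are 2.92% of the members, again near the background. None of them was called when any 1 of the 4 arrays was left out, but calls over all genes were not counted in those fits.

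Sizes were small. The log2 differences ran from -0.46 to 0.24, with a median standard error (SE) of 0.076. In size, 5 members (3.65%) passed 0.3, against 10.4% of all genes, and 0 members passed 0.5, against 262 genes overall. The 95% interval of the difference lay within 0.5 of 0 on the log2 scale for 128 members (93.4%), against 76.5% of all genes, so a change beyond that size was outside the interval for most of them. Members more often had high signal: a filter at the 60th percentile kept 128 of the 137, and 9269 of the 11883 genes. The part of signal level in these shares was not tested.

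**Figure D1:**
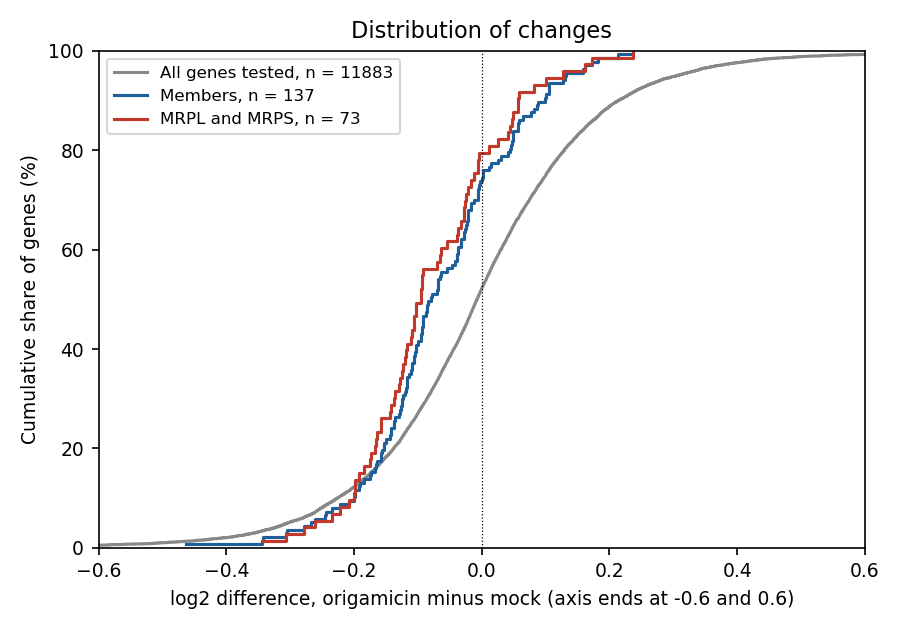
Cumulative share of genes (vertical axis, %) against the log2 difference, origamicin minus mock (horizontal axis), for all 11883 genes tested, the 137 members and the 73 ribosomal protein genes. At 0 the curve of the members has reached 74.5% and that of all genes 52.1%; the member curves are steeper and lie below that of all genes at the far left, where few members stand.

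Of the 73 ribosomal protein genes tested, 58 were lower (79.5%), with a median of -0.096. By subunit, 38 of 48 MRPL genes were lower (median -0.092) and 20 of 25 MRPS genes (median -0.11), against 52.1% of all genes. At an unadjusted p under 0.05 in limma, 7 MRPL genes and 1 MRPS gene were lower, against 8.42% of all genes. Groups did not overlap for 35 of the 73 on the lower side (25.8% of all genes) and 7 on the higher side (22.7% of all genes), the 7 being 6 MRPL genes and 1 MRPS gene. Of genes numbered after a bacterial ribosomal protein (MRPL up to 36, MRPS up to 21), 33 of 41 were lower (median -0.10), 7 of them at an unadjusted p under 0.05. Of those numbered as additions of the mitochondrial ribosome, 25 of 32 were lower (median -0.096), 1 of them at that threshold. The share of all genes lower at that threshold was 8.42%. None of these differences between gene groups was tested. The MRPS symbol does not always mean the small subunit: MRPS30 and MRPS18A encode proteins of the large one, and stood at -0.12 ± 0.08 and -0.03 ± 0.08 (the second at 0.045 without mock replicate 1; log2 difference ± SE, n = 2 arrays per group, as in all such values below).

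**Figure D2:**
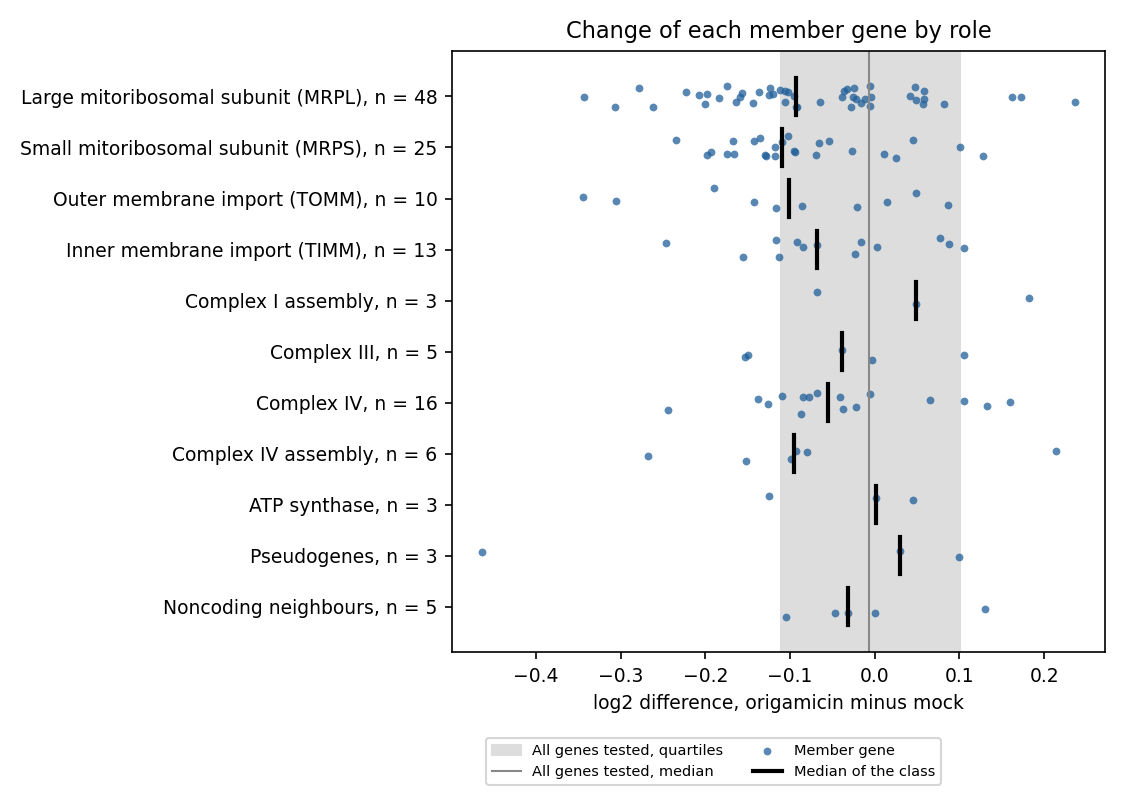
Log2 difference of each tested member (points; horizontal axis, origamicin minus mock) by role (rows), with the median of each class as a bar; vertical jitter has no meaning. The grey band and line give the quartiles (-0.11 and 0.10) and the median (-0.0072) of all genes tested, and the medians of both ribosomal classes and both import classes lie to the left of that line.

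Among large subunit genes, MRPL50, a protein specific to the mitochondrial ribosome, read 8.48 and 8.43 in mock and 8.13 and 8.16 after origamicin. The groups did not overlap, and the level was 19.1% lower (log2 difference -0.31 ± 0.06, limma adjusted p = 0.177; 0.0275 with an intensity trend). MRPL2, whose bacterial relative lies beside the peptidyl transferase centre, read 8.849 and 9.004 in mock and 8.639 and 8.530 after origamicin. It was 21.1% lower with no overlap (-0.34 ± 0.09, limma adjusted p = 0.206; 0.0445 with an intensity trend). MRPL17 read 7.51 on both mock arrays and 7.19 and 7.28 after origamicin, again without overlap (-0.28 ± 0.07). It did not pass in either fit (limma adjusted p = 0.196 and 0.0709).

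Further large subunit genes at an unadjusted p under 0.05 were MRPL33 (-0.26 ± 0.08), MRPL11 of the stalk base (-0.20 ± 0.06), MRPL21 (-0.20 ± 0.06) and MRPL30 (-0.21 ± 0.07). In each of them both origamicin arrays lay below both mock arrays.

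Among small subunit genes, MRPS10 read 9.57 and 9.54 in mock and 9.31 and 9.33 after origamicin. The groups lay apart by far more than the arrays within them, and the level was 15.0% lower (-0.23 ± 0.06, limma adjusted p = 0.217; 0.0368 with an intensity trend). MRPS35 read 9.20 and 9.23 in mock and 9.04 and 9.06 after origamicin (-0.17 ± 0.06, limma adjusted p = 0.306). Neither the plain fit nor the intensity trend called it.

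Some ribosomal genes stood higher, none past a test. MRPL55 read 6.87 and 6.99 in mock and 7.26 and 7.07 after origamicin (0.24 ± 0.10, limma adjusted p = 0.334). MRPL27, whose bacterial relative reaches the peptidyl transferase centre, stood at 0.17 ± 0.07, MRPL23 at 0.16 ± 0.07, MRPS11 at 0.10 ± 0.07 and MRPL49 at 0.08 ± 0.06. In all 5 the origamicin arrays lay above the mock arrays. MRPS18B stood at 0.13 ± 0.10 with overlapping groups, and its 7 named probe sets held identical values.

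**Figure D3:**
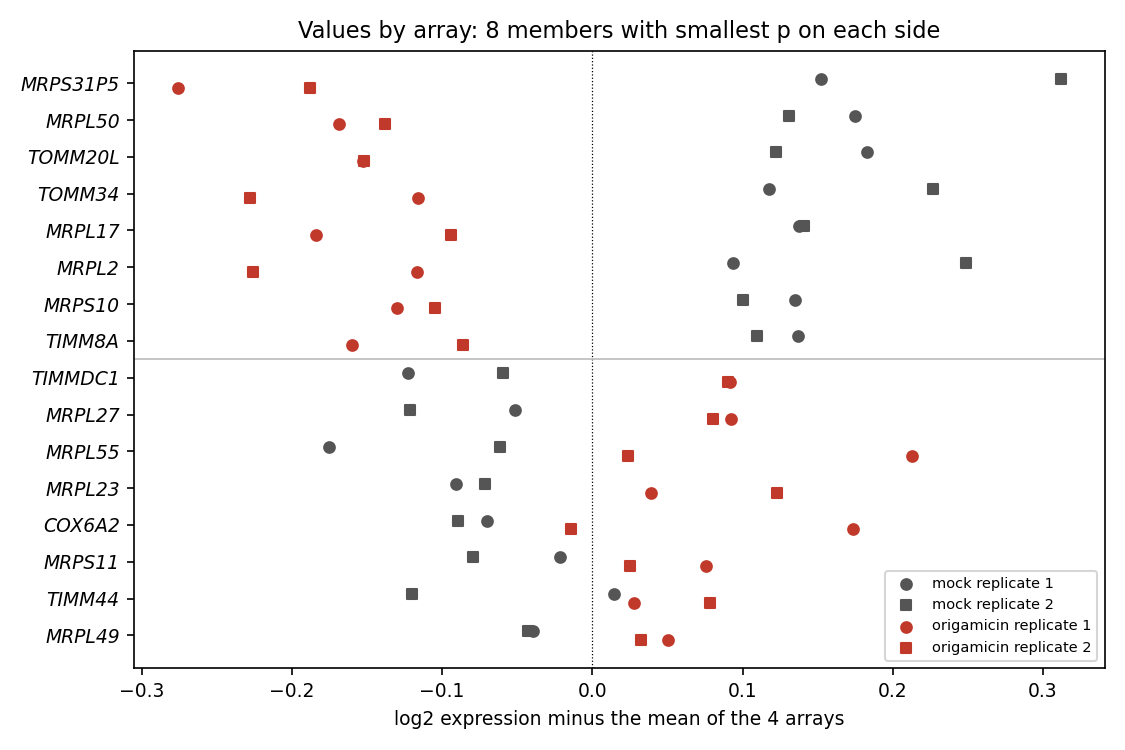
Log2 expression on each array minus the gene's mean over the 4 arrays (horizontal axis) for the 8 members with the smallest limma p on the lower side (upper rows) and on the higher side (lower rows); grey points are mock, red points origamicin, circles replicate 1 and squares replicate 2. The groups do not overlap in any of the 16 rows, but the rows were picked by p on these same arrays, which favours groups that lie apart. Among all genes tested, groups did not overlap for 25.8% on the lower side and 22.7% on the higher side. The gap is wider in the lower-side genes shown, such as MRPL50 (-0.31), than in those on the higher side, such as MRPL49 (0.08).

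Of the import machinery, 7 of 10 TOMM genes were lower (median -0.10) and 9 of 13 TIMM genes (median -0.068). The largest difference was in TOMM34, which despite its symbol is a cytosolic co-chaperone that binds HSP70, HSP90 and mitochondrial precursors. It read 8.39 and 8.50 in mock and 8.16 and 8.05 after origamicin, without overlap. The level was 21.2% lower (-0.34 ± 0.08, limma adjusted p = 0.190; 0.0382 with an intensity trend).

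In the TOM complex itself, TOMM22, its central receptor, read 8.70 and 8.67 in mock and 8.48 and 8.51 after origamicin (-0.19 ± 0.06). It was below the unadjusted threshold but not called in either fit (limma adjusted p = 0.269 and 0.0868). The presequence receptor TOMM20 stood at 0.05 ± 0.06, the receptor TOMM70 at -0.09 ± 0.06 and the pore TOMM40 at -0.02 ± 0.07. The 95% interval was -0.12 to 0.21 for TOMM20. The sign of TOMM40 flipped under quantile normalization (0.0087), with the mean of its 2 probe sets (0.012) and without mock replicate 1 (0.022) or origamicin replicate 1 (0.011).

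The paralogues of the receptor and the pore were set beside them. TOMM20L, a paralogue of TOMM20, read 4.22 and 4.16 in mock and 3.88 on both origamicin arrays, close to the filter at 3.82. Its difference (-0.31 ± 0.06) had a limma adjusted p of 0.177, and of 0.336 with an intensity trend, where the SE was 0.153. TOMM40L stood at 0.01 ± 0.09 with overlapping groups, and at -0.0023 with equal array medians.

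Of the inner membrane translocases, TIMM8A, an intermembrane space chaperone for imported membrane proteins, read 8.10 and 8.08 in mock and 7.81 and 7.88 after origamicin. The groups did not overlap and the level was 15.7% lower (-0.25 ± 0.07, limma adjusted p = 0.220; 0.0668 with an intensity trend). Its paralogue TIMM8B stood at -0.16 ± 0.08. Of the channel paralogues, TIMM17A stood at -0.11 ± 0.08 and TIMM17B at -0.07 ± 0.08. TIMM44, which anchors the import motor, stood at 0.11 ± 0.08. None of these passed.

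Of the 24 tested subunit-type genes of complexes III and IV and ATP synthase, 17 were lower, with a median of -0.040. In complex IV the clearest gene was COX8A, the widely expressed form of a small subunit, at 11.41 and 11.49 in mock and 11.28 and 11.13 after origamicin. It was 15.5% lower without overlap (-0.24 ± 0.08, limma adjusted p = 0.273; 0.0655 with an intensity trend).

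The other widely expressed complex IV forms named by the rule were COX4I1 (-0.07 ± 0.06), COX6A1 (-0.08 ± 0.07), COX6B1 (-0.13 ± 0.07), COX7A2 (-0.04 ± 0.09) and COX7B (-0.09 ± 0.07). Their tissue-restricted counterparts were read at low levels: COX4I2, a form linked to lung and hypoxia, at 4.71 to 5.01, the muscle forms COX6A2 and COX7A1 at 4.50 to 4.76 and 3.74 to 4.35, and the testis forms COX6B2 and COX8C at 3.90 to 4.26 and 3.97 to 4.52. COX6A2 stood at 0.16 ± 0.09 with the origamicin arrays above the mock arrays, and the other 4 had overlapping groups, with differences from -0.08 to 0.13. The sign of those 4 and of COX7A2 flipped when 1 array was left out, as far as from 0.07 to -0.24 for COX7A1 without mock replicate 1. No switch of isoform was detectable at these levels, although the intervals were wide (-0.64 to 0.78 for COX7A1).

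In complex III, the core protein gene UQCRC2 read 10.72 and 10.74 in mock and 10.57 and 10.59 after origamicin (-0.15 ± 0.06, limma adjusted p = 0.334). UQCRHL, a coding copy of the hinge protein gene UQCRH, stood at -0.15 ± 0.08, and UQCRH itself at -0.0031 ± 0.07. Near-identical copies can share probe targets, so the split between these 2 genes is uncertain. UQCRB stood at 0.11 ± 0.08 with overlapping groups.

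Among assembly factors of complex IV, 5 of 6 were lower (median -0.096), led by the insertase COX18 (-0.15 ± 0.07) and the copper-relay protein COX19 (-0.27 ± 0.14). COX14 was the exception, with overlapping groups (0.21 ± 0.17). ATP synthase was measured through its associated subunits ATP5MK (-0.13 ± 0.07) and ATP5MJ (0.0016 ± 0.06) and the inhibitor ATP5IF1 (0.05 ± 0.07).

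The single member at an unadjusted p under 0.05 on the higher side was TIMMDC1, which despite its symbol is an assembly factor of complex I. It read 11.30 and 11.36 in mock and 11.51 on both origamicin arrays, and the groups did not overlap. The level was 13.5% higher (0.18 ± 0.06, limma adjusted p = 0.289; 0.0591 with an intensity trend). The other complex I assembly factors, NDUFAF7 and NDUFAF8, stood at -0.07 ± 0.06 and 0.05 ± 0.08, the latter at -0.015 without origamicin replicate 1.

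The largest difference of any member was in a pseudogene. MRPS31P5 read 5.75 and 5.91 in mock and 5.32 and 5.41 after origamicin, 27.5% lower without overlap (-0.46 ± 0.09, limma adjusted p = 0.171; 0.0785 with an intensity trend). Its parent gene MRPS31 stood at -0.10 ± 0.08 with overlapping groups, and probes that the copies share could not be separated here. The pseudogenes MRPL45P2 and UQCRBP1 stood at 0.10 and 0.03. None of the 5 noncoding neighbours had separate groups, and their differences ran from -0.11 to 0.13.

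The promoters of the members were searched for letters bound by factors known to drive nuclear genes of mitochondria. RefSeq promoters (GRCh38.p14, 250 bases before to 50 after the start) were found for 114 of the 130 protein-coding members. On both strands, CCGGAAG, the core of ETS factors such as GABPA, was present in 46 (40.4%), against 14.2% of 15843 protein-coding promoters and 17.3% of the 8404 whose gene was tested here. GCATGCG, within the NRF1 site, was present in 13 (11.4%; 5.14% and 6.04%), and GATGGCG, within the YY1 site, in 18 (15.8%; 5.71% and 7.01%). None of the 3 motifs contains another, and GCATGCG and its reverse strand share 6 letters, so that CGCATGCG matches on both strands. These are matches in letters only. Of the tested members with the ETS letters 39 of 46 were lower (median -0.10), and of those without 46 of 67 (median -0.066), a difference not tested. For NRF1 the figures were 10 of 13 (median -0.070) and 75 of 100 (median -0.089), and for YY1 14 of 18 (-0.089) and 71 of 95 (-0.086).

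Of the 6 members with the smallest p that have a RefSeq promoter, TOMM34, MRPS10 and MRPL17 held a match in the printed stretch and are shown with MRPL50, whose match lies past it; TOMM20L and TIMM8A held no match in their windows. Each run covers 120 bases before and the first 10 bases after the RefSeq start, with matches in capitals. MRPL50 (chr9:101398609-101398738, minus strand) holds no match in this stretch and a YY1 match 26 bases into the transcript.
MRPL50: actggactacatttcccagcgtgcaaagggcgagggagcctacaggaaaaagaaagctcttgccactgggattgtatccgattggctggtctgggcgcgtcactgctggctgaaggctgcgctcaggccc
TOMM34 (chr20:44960388-44960517, minus strand) holds an ETS match that begins 4 bases before the start.
TOMM34: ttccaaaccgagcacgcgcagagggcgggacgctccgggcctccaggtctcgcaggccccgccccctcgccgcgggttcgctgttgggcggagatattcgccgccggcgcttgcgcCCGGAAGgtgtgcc
MRPS10 (chr6:42217852-42217981, minus strand) holds an ETS match that begins 22 bases before the start, and a YY1 match beyond the printed stretch.
MRPS10: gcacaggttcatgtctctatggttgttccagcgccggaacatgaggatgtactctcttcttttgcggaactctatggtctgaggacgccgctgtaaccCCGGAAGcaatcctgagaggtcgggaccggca
MRPL17 (chr11:6683331-6683460, minus strand) holds the NRF1 letters at 2 places, on both strands at each, beginning 80 and 42 bases before the start.
MRPL17: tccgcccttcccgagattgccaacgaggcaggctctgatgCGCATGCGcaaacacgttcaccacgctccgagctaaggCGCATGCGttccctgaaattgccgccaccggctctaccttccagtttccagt

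Members often lay head to head with another gene. With start sites up to 1000 bases apart on opposite strands, 26 of the 114 (22.8%) had a divergent protein-coding neighbour, against 10.3% of all protein-coding promoters and 12.2% of those of tested genes. Of the 18 members whose neighbour was also tested, 12 were lower, while 9 of the 18 neighbour values were lower (median -0.0052). The member pair MRPL46 and MRPS11 counts on both sides, each gene as the neighbour of the other. MRPL50 shares its start region with ZNF189 (-0.21 ± 0.10). TOMM70, at -0.09, lies 450 bases from LNP1, which stood at -0.56 ± 0.07 (limma adjusted p = 0.107; 0.023 with an intensity trend). MRPL46 and MRPS11, both members, lie head to head 320 bases apart and stood at 0.05 and 0.10, above 0 together.

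Other mitochondrial genes, from lists by function, gave a mixed picture. No gene of these lists passed in the plain limma fit. Among all genes tested 52.1% were lower. At an unadjusted p under 0.05 in limma 8.42% were lower and 7.99% higher. With an intensity trend 2.16% passed an adjusted p of 0.05 on the lower side and 2.14% on the higher side. In the assembly factors and electron carriers of the respiratory chain, 29 of 41 tested genes were lower (median -0.091). At an unadjusted p under 0.05 in limma 9 were lower and 1 higher, and 1 passed with an intensity trend. The 2 with the smallest p were the complex II factor SDHAF4 (6.63 and 6.50 in mock, 6.24 and 6.11 after origamicin; -0.39 ± 0.09) and the complex I factor TMEM186 (-0.36 ± 0.09). That list also holds the member TIMMDC1. The gene that passed was SCO1, a copper chaperone of complex IV, named after its values were seen (-0.26 ± 0.07, limma adjusted p = 0.0404 with an intensity trend).

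Import partners and proteases had 6 of 12 lower (median -0.020), with differences from -0.29 to 0.10. At an unadjusted p under 0.05 in limma 3 were lower and 0 higher, against 8.42% and 7.99% of all genes. Groups did not overlap for 6 on the lower side and 2 on the higher side, against 25.8% and 22.7% of all genes. PMPCB, a subunit of the peptidase that removes import presequences, read 10.55 and 10.64 in mock and 10.31 and 10.30 after origamicin (-0.29 ± 0.07, limma adjusted p = 0.0235 with an intensity trend), and AGK, a lipid kinase of the TIM22 complex, stood at -0.26 ± 0.07. In the list of translation and ribosome assembly factors 16 of 24 were lower (median -0.050), none passing. The rRNA methyltransferase MRM1 stood at -0.24 ± 0.07. PTCD3, on that list but itself a protein of the small ribosomal subunit, stood at -0.23 ± 0.08. Cristae and dynamics genes had 8 of 11 lower (median -0.14), none passing, with CHCHD6 at -0.25 ± 0.09 and APOO at -0.18 ± 0.07.

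Chaperones and quality control had 9 of 12 lower (median -0.051), against 52.1% of all genes. With an intensity trend 2 passed, both lower, against 2.16% of all genes on that side. TRAP1, the mitochondrial HSP90, read 10.60 and 10.65 in mock and 10.29 and 10.21 after origamicin (-0.38 ± 0.07, limma adjusted p = 0.0114 with an intensity trend). YME1L1, an inner membrane protease picked once its values were known, was the other (-0.21 ± 0.07, limma adjusted p = 0.0466 with an intensity trend). The prohibitin PHB1 stood at -0.20 ± 0.06. The protease HTRA2, also picked once its values were known, stood on the other side at 0.34 ± 0.11, 26.4% higher without overlap, and did not pass. The tricarboxylic acid cycle had 6 of 10 lower (median -0.080) and none passing, with PDHB at -0.13 ± 0.07 and IDH3A at 0.13 ± 0.07.

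Regulators of mitochondrial biogenesis went the other way in number, with 2 of 10 lower (median 0.054). MYC, a transcription factor that also drives growth and mitochondrial genes, was one of the 2, at 8.94 and 9.07 in mock and 7.98 and 8.08 after origamicin (-0.97 ± 0.08, limma adjusted p = 0.0953; 0.0019 with an intensity trend). The coregulator HCFC1 stood at 0.17 ± 0.08. Of the 10 regulators, 1 was lower and 0 higher at an unadjusted p under 0.05 in limma, against 8.42% and 7.99% of all genes. Groups did not overlap for 1 on the lower side and 2 on the higher side, against 25.8% and 22.7% of all genes. Mitochondrial DNA transcription and replication genes had 3 of 6 lower (median 0.022), with MTERF2 at -0.17 ± 0.08 and RNASEH1 at 0.14 ± 0.08. Of the mitochondrial aminoacyl-tRNA synthetases 0 of 17 had a named probe set, and they were not analysed here.

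**Figure D4:**
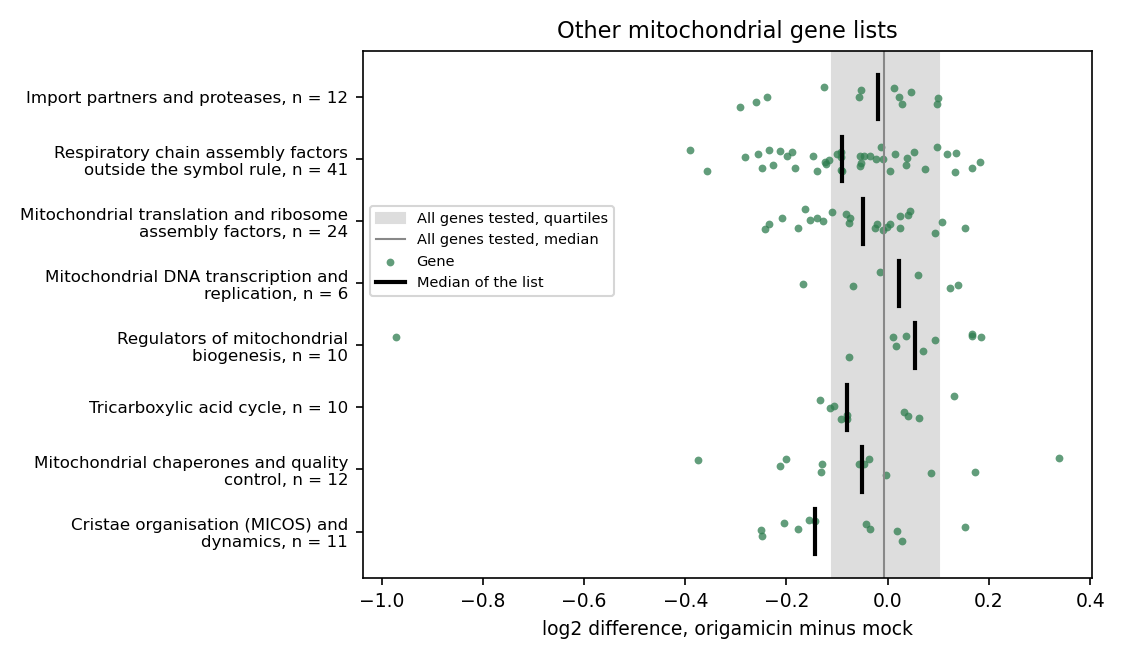
Log2 difference of each tested gene (points; horizontal axis, origamicin minus mock) in 8 lists of other mitochondrial genes (rows), with list medians as bars; the grey band and line give the quartiles and the median of all genes tested, and vertical jitter has no meaning. The single point far to the left is MYC at -0.97, and the list medians run from -0.14 for cristae and dynamics to 0.054 for the regulators.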

How the data were processed

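The authors deposited 1 table of log2 expression for 53617 probe sets on 4 arrays. Per the submitters' processing notes the tools were RMA and limma, with no version or role stated; the build and annotation were not given in the sources used here. Deposited log2 values lay between 0.574 and 14.5 (medians by array 4.37 to 4.42) and were kept without further normalization. Arrays have no counting depth, so the number of arrays limits the precision.

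A platform annotation named 1 gene for 16098 probe sets and several for 0. Per gene, the probe set with the highest mean was kept, which left 14884 genes. The 11883 at or above the 40th percentile of all probe set means were fitted with lmFit and eBayes (no intensity trend, no covariate, two-sided) in limma 3.58.1 under R 4.3.3, with Benjamini-Hochberg adjustment over those genes. The script was tested on simulated data. All 139 symbols matched the current RefSeq gene table. Counts over members and lists are descriptions, read against all genes tested.

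The members and lists were chosen with earlier results of these data known. The rule named, among members, the 8 with the smallest p on each side, the 2 with the smallest p per class, and fixed isoform and paralogue sets, and, per list, the 2 with the smallest p. Other named genes were picked after their values were seen. Alternatives were an intensity trend, robust eBayes, 2 other filters, equal medians, quantile normalization, cyclic loess, averaging the probe sets of a gene, a replicate block and leaving out each array. Combinations with the intensity trend were added after seeing the data.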

Additional observations from a re-analysis of the deposited data

How the results depend on the processing

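With 2 arrays per group, the median difference of the members is about the size of the SE of a single gene (-0.080 against a median SE of 0.076). The count of 0 members past an adjusted p of 0.05 became 4 with an intensity trend and was 0 under the other alternatives, and the 0 over all genes became 511 with the trend and 92 with the 60th percentile filter. The 4 became 0 with the trend and a replicate block, and none of them was called whichever array was left out. With the trend and quantile normalization they were 4, and 1 member, TIMMDC1, passed on the higher side. Calls over all genes were not counted in these combinations with the trend. Members lower at an unadjusted p under 0.05 (14) became 25 with the trend (18.2%, against 10.5% of all genes). With a replicate block they became 10 (7.3%, against 7.48% of all genes). Leaving out 1 array lowered this share for members and for all genes, with the members below all genes each time. Members higher (1) became 3 with the trend or the 60th percentile filter, and 0 with no filter, equal medians or a replicate block. The higher-side shares of all genes under these alternatives were not counted. Fits without 1 array assume that the lone array of a group varies like the others.

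The median member difference of -0.080 was -0.0855 with the 60th percentile filter, -0.0960 with equal medians, -0.0708 with quantile normalization, -0.0733 with cyclic loess and -0.0715 with the mean of probe sets. Without 1 array it ran from -0.0809 to -0.0677. The share of members lower stayed between 68.1% and 77.4% over all alternatives, and that of all genes between 50.6% and 56.6%. The cause of these moves was not tested.

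Of 553 values of 43 named members under the alternatives, 531 kept sign and side of the threshold and 4 newly passed with the trend. The other 18 changed sign, in 9 members whose differences were smaller than their SE. TOMM40 became 0.0087 with quantile normalization and 0.012 with the mean of probe sets, and TOMM40L -0.0023 with equal medians. Without 1 array the values ran from -0.064 to 0.022 for TOMM40, -0.076 to 0.10 for TOMM40L, -0.23 to 0.070 for COX4I2, -0.19 to 0.17 for COX6B2, -0.24 to 0.37 for COX7A1, -0.11 to 0.028 for COX7A2, -0.14 to 0.41 for COX8C, -0.099 to 0.045 for MRPS18A and -0.015 to 0.11 for NDUFAF8.

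The replicate numbers are shared by the groups, but nothing in the labels ties them to a day or passage. Deviations of same-numbered arrays correlated at -0.023 over all genes and 0.11 over the members, so the numbers were not taken to pair the arrays. Tissue-restricted isoforms were read at low signal, with SEs of 0.088 for COX6A2 to 0.27 for COX7A1.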
